A study of Mus musculus with 55 samples.

Results

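The genes described here are 10 genes of meiotic recombination, synapsis and sister chromatid cohesion: Spo11, Mei4, Hormad1, Sycp3, Sycp1, Dmc1, Tex15, Smc1b, Rec8 and Stag3. They were chosen by name, with earlier results of these data in view, as 10 of 33924 genes in one deposited count table and the rows with identical exons among 37310 features in the other. The study examined the helicase DHX36, also known as RHAU, and RNA G-quadruplexes in mouse oocytes. Of its 55 samples, the 26 RNA-seq libraries were used. Every sample is labelled as ovary tissue and oocyte cells, and the shared extraction protocol names growing oocytes of control and Dhx36fl/fl;SKO mice alike for all groups, while a title gives a stage for the GV groups only. In the first experiment 3 Dhx36_sko libraries were set against 3 control libraries. In the DRB experiment, sko libraries with DRB (rhau_sko_DRB, 2 libraries) and without it (rhau_sko, 2) were set against c libraries with DRB (c_DRB, 2) and without it (c, 2). DRB is a kinase inhibitor that blocks transcript elongation by RNA polymerase II. In the cPDS experiment, oocytes at the germinal vesicle (GV) stage, the arrested stage before the first meiotic division, were labelled cPDS 12h (GV_cPDS_12h, 3 libraries) and set against GV_C (3). No time is given for GV_C. The ligand cPDS is carboxypyridostatin, which binds RNA G-quadruplexes. In the Trim experiment, 3 libraries with Dhx36, 3 h and Trim21 in their titles (Trim21_3h) were set against 3 controls of the same time (Trim_control_3h). Trim-away degrades an antibody-bound protein through the ubiquitin ligase TRIM21. No source used here gives the driver of the knockout, the strain and age, the number of oocytes and animals in a library, or the doses.

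In mammalian females, meiotic recombination takes place in the fetal ovary: SPO11 cuts both DNA strands with the help of MEI4, the cuts are repaired on the homologous chromosome by the recombinase DMC1, and the synaptonemal complex joins the homologues along their length. HORMAD1 and SYCP3 belong to the chromosome axis, SYCP1 forms the transverse filaments between the axes, and TEX15 is needed in mouse spermatocytes for loading DMC1 onto breaks. SMC1B, REC8 and STAG3 are meiotic subunits of cohesin, the ring that holds sister chromatids together through the long arrest of the oocyte. Growing and GV-stage oocytes are past the recombination steps, while cohesin is in use until the meiotic divisions.

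All 10 genes are single loci in build mm9, including Mei4 at chr9:81757277-82099614, plus strand, Tex15 at chr8:34627210-34696054, plus strand, Hormad1 at chr3:95363599-95391593, plus strand and Dmc1 at chr15:79391930-79435529, minus strand. Counts were summed over all annotated exons of a gene. Of the exon bases of Sycp3, 660 of 1264 overlap Chpt1 on the opposite strand, and 186 of 4586 bases of Mei4 overlap Gm16875 on the opposite strand. The counting's strand setting is not known from the labels or headers, so reads of such partners cannot be told apart. No exon of the other 8 genes overlaps another listed gene.

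The deep libraries held 31930695 to 41075545 counts in the first experiment, 23010562 to 40968105 in the DRB experiment, 26509060 to 65444652 in the cPDS experiment and 7452742 to 32704737 in the Trim experiment. One c_DRB library with 129192 counts and one rhau_sko library with 127927 counts were left out, which left 1 deep library in each of those groups. The 12 oocyte markers were detected in every group and held 0.709% to 3.28% of the counts of a library. Dhx36 was lower in both knockouts and in Trim21_3h: 2.83, 1.95 and 1.73 CPM in Dhx36_sko, against 7.34, 8.06 and 10.9 CPM in control, -2.01 ± 0.24 (SE, adjusted p = 4.24e-06) on the log2 scale. The log2 change was -2.72 ± 0.17 (SE, adjusted p = 2.12e-06) in rhau_sko, 0.73 ± 0.10 (SE, adjusted p = 1.82e-05) in GV_cPDS_12h and -1.99 ± 0.18 (SE, adjusted p = 1.43e-05) in Trim21_3h. Trim21 stood at 8459 ± 844 CPM in Trim21_3h and 14.7 ± 0.0953 CPM in Trim_control_3h (SD, n = 3 each). CPM are counts per 1000000 counts of the TMM-scaled library size, RPKM are CPM per 1000 bases of exon, and a gene is called where the adjusted p of edgeR's quasi-likelihood test over all genes is under 0.05. Nothing in the labels says that the libraries of a group came from separate animals, so the p-values measure the spread between these samples. In bulk libraries, fewer cells with a transcript and less of it per cell cannot be told apart.

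Rec8, the meiotic kleisin that closes the cohesin ring, had 0 counts in all 24 deep libraries, which together held 835375146 counts. A count of 3, the floor that a count of 0 allows, is 0.0458 CPM in the deepest and 0.403 CPM in the shallowest library. Spo11 had 0 counts in 23 of the 24 libraries and 4 counts in 1 rhau_sko_DRB library. Neither gene passed the filter on low counts in any comparison. The early meiotic marker Stra8, whose product starts the meiotic programme in the fetal ovary, also had 0 counts in every group. Floors and intervals cover counting error only, and whether mapping or annotation kept reads of Rec8 or Spo11 out of the counts was not tested.

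The other 8 genes were detected in every group. Per length and averaged over the 18 deep libraries of the first table, Mei4 had the highest level at 34.5 RPKM, followed by Tex15 at 17.1, Sycp3 at 14.02, Hormad1 at 10.7, Smc1b at 8.45 and Sycp1 at 7.93 RPKM. Dmc1 averaged 2.06 RPKM and Stag3 averaged 0.739 RPKM. Mei4 was the highest of the 10 genes per length in 8 of the 10 groups. In c it was second to Tex15, and in Trim_control_3h it was at rank 6. TMM factors were computed within each experiment, so levels set across experiments carry that difference, and the Trim libraries also come from another table.

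**Figure D1:**
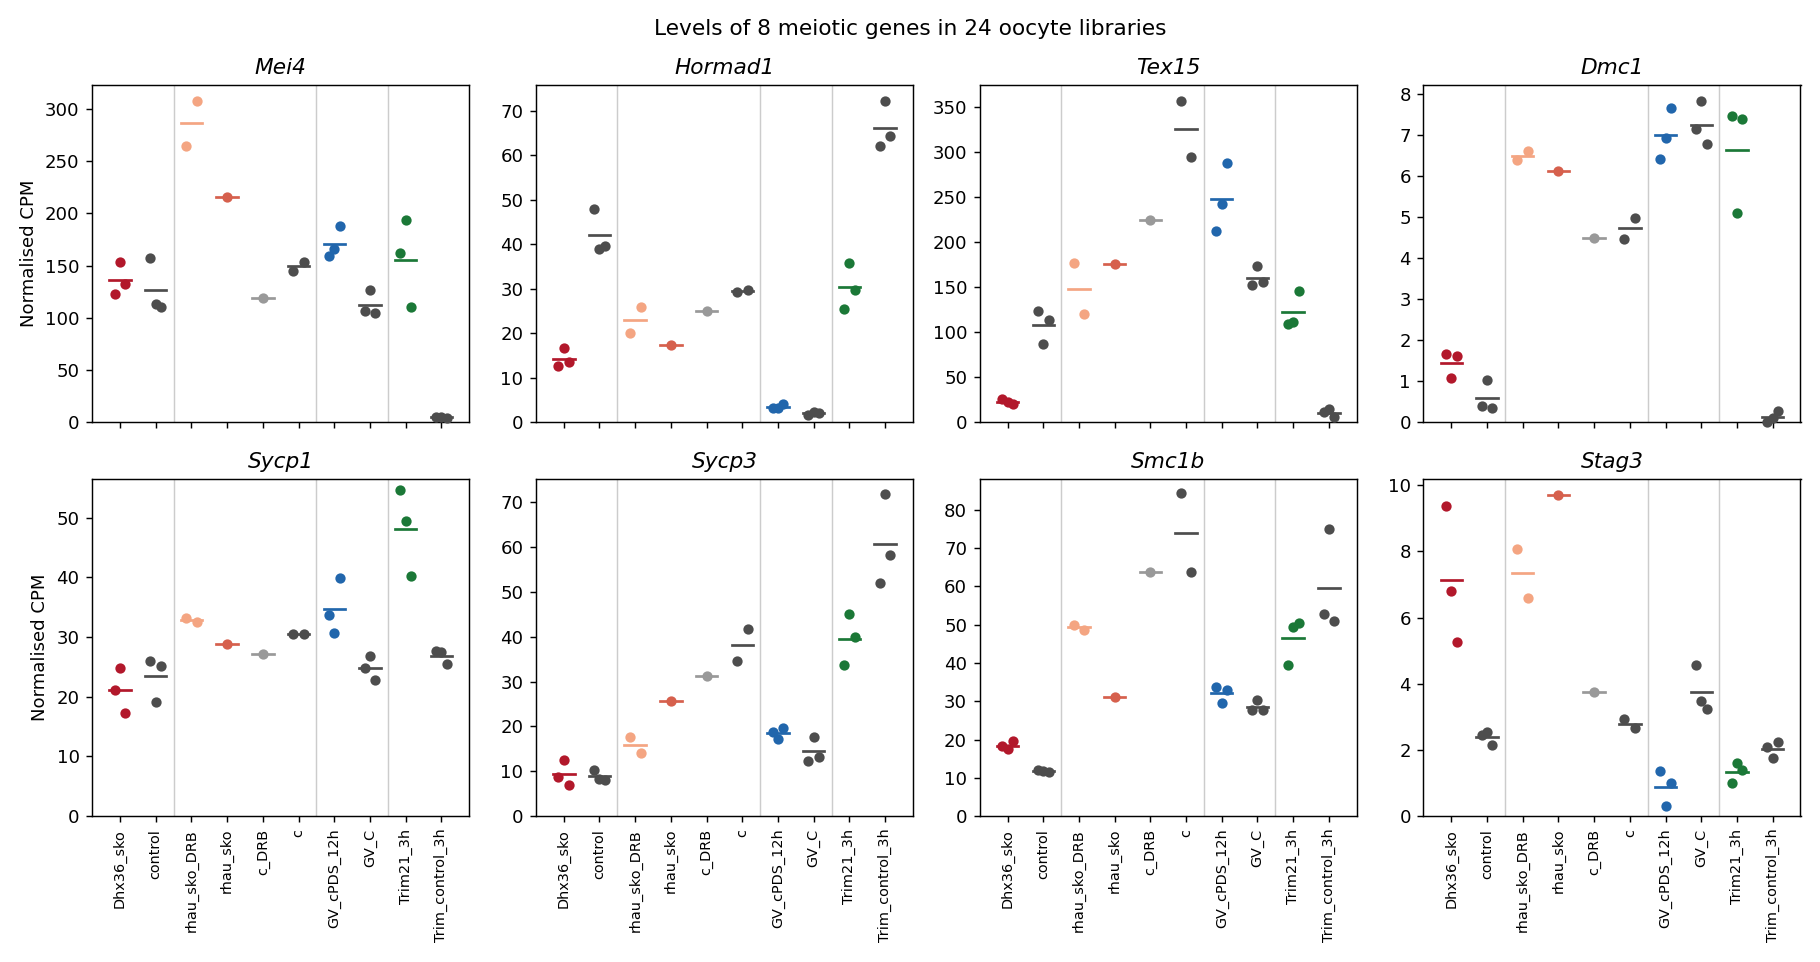
Normalised CPM (y axis, linear) of the 8 detected genes in the 24 deep libraries, by group (x axis). Points are libraries and lines are group means, and each experiment was normalised apart from the others. The 3 Trim_control_3h libraries lie near 0 for Mei4, Tex15 and Dmc1 and highest for Hormad1 and Sycp3. Dmc1 is also low in control and Dhx36_sko, and Tex15 in Dhx36_sko.

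The groups ordered differently from gene to gene. For Mei4 the order of group means began with rhau_sko_DRB and rhau_sko, at 62.4 and 47.0 RPKM, which did not overlap each other or the next group. It went through 7 groups between 37.3 and 24.5 RPKM whose neighbours overlapped in every case, and ended with Trim_control_3h at 0.961 RPKM. For Hormad1 the highest group was Trim_control_3h at 38.3 RPKM and the lowest were GV_cPDS_12h at 2.00 RPKM and GV_C at 1.13 RPKM. For Tex15 the order began with c at 33.9 RPKM and ended with Dhx36_sko at 2.37 and Trim_control_3h at 1.09 RPKM. For Dmc1 the 3 lowest groups were Dhx36_sko, control and Trim_control_3h at 0.652, 0.267 and 0.0549 RPKM, with no overlap between neighbours. Sycp1 had the narrowest spread, from 13.9 RPKM in Trim21_3h to 6.07 RPKM in Dhx36_sko, and the 4 lowest groups overlapped their neighbours. Stag3 had its 3 highest group means in the 3 knockout groups, at 1.69 RPKM in rhau_sko, 1.28 in rhau_sko_DRB and 1.25 in Dhx36_sko, and its lowest in GV_cPDS_12h at 0.154 RPKM.

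RefSeq promoter windows of build GRCm38.p6, from 250 bases before to 50 bases after the annotated start, matched 8 of the 10 genes, all but Tex15 and Spo11. They were searched on both strands for TCCCGC, the site through which E2F6 silences Smc1b and Stag3 in mouse somatic cells, for the E-box CACGTG, which MGA and MAX bind, and for TGACGTCA, the CRE. TCCCGC was in 7 of the 8 windows and in 19.98% of all 32851 promoter windows. CACGTG was in 4 of the 8 and in 7.15% of all, and TGACGTCA in 0 of the 8 and in 1.79% of all. A pattern of 4 runs of at least 3 G with 1 to 7 bases between runs, on either strand, was in 3 of the 8 (Mei4, Hormad1 and Dmc1) and in 18.6% of all windows. Mei4 held none of the 3 shorter motifs. The 5 windows printed belong to genes that share TCCCGC and moved in different directions in the comparisons that follow, and their capitals mark TCCCGC, read on either strand, and CACGTG. A match describes the letters and is no evidence of binding. The motif TCCCGC began at -95 in Hormad1, -147 in Sycp3, -240 and -13 in Dmc1, -47 in Smc1b and -2 in Stag3, counted from 0 at the first transcribed base. The windows were chr3:95559427-95559726, plus strand (Hormad1, 1 of 2 windows of the gene), chr10:88459337-88459636, plus strand (Sycp3), chr15:79605060-79605359, minus strand (Dmc1), chr15:85131908-85132207, minus strand (Smc1b) and chr5:138280259-138280558, plus strand (Stag3).
Hormad1: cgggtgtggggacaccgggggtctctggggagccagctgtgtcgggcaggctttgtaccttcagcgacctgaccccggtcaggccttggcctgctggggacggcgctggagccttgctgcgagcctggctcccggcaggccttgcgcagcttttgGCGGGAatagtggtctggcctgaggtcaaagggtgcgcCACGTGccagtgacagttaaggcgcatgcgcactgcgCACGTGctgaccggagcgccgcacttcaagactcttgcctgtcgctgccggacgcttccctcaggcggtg
Sycp3: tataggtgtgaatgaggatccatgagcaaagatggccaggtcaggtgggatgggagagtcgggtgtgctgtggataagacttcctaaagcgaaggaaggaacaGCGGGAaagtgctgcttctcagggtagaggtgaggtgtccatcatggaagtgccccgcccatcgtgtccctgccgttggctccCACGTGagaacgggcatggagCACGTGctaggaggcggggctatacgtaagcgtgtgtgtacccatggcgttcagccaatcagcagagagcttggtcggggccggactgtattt
Dmc1: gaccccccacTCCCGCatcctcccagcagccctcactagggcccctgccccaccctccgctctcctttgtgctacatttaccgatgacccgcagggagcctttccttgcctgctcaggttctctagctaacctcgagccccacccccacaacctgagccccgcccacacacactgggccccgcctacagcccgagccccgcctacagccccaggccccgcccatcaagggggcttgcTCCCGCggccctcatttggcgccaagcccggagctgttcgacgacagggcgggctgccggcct
Smc1b: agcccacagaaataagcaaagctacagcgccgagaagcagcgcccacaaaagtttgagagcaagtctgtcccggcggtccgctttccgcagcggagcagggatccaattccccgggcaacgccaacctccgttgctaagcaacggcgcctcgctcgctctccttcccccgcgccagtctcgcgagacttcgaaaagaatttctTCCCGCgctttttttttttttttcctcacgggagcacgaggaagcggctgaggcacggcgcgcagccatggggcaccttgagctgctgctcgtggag
Stag3: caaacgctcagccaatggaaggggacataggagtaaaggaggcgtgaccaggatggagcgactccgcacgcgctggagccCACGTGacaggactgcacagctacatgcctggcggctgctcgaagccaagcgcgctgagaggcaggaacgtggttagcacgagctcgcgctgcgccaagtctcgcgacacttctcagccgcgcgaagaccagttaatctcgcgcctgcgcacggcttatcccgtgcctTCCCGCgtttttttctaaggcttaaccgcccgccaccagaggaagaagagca

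In the first experiment, Dhx36_sko oocytes held less Tex15 and Hormad1 transcript than control oocytes and more Stag3, Smc1b and Dmc1, while Mei4, Sycp1 and Sycp3 were not called. Of the 8 genes tested, 3 were called higher and 2 lower, beside 53.7% of all 14081 genes called in either direction, 28.5% higher and 25.2% lower. Read against that background, the number of members called is no result about these genes. When libraries were scaled by their total alone, the median log2 change of all genes was 0.21 instead of 0.02, and 4823 genes were called higher and 2386 lower instead of 4017 and 3549. No called member changed direction or lost its call under that scaling.

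Among the break genes, Mei4 stood at 123, 153 and 132 CPM in Dhx36_sko, against 157, 113 and 110.0 CPM in control. The groups overlapped and the log2 change was 0.10 ± 0.15 (SE, adjusted p = 0.59). Hormad1, an axis protein that recruits the break machinery, stood at 12.7, 16.7 and 13.4 CPM in Dhx36_sko, against 47.9, 38.8 and 39.6 CPM in control. Every Dhx36_sko library lay below every control library, a fall of 2.95-fold with a log2 change of -1.56 ± 0.15 (SE, adjusted p = 3.63e-07). Sycp3, the main protein of the lateral element, stood at 8.80, 12.5 and 6.97 CPM in Dhx36_sko, against 10.4, 8.22 and 8.11 CPM in control, with overlapping groups and a log2 change of 0.08 ± 0.21 (SE, adjusted p = 0.77). Sycp1 stood at 21.2, 24.8 and 17.2 CPM in Dhx36_sko, against 25.9, 19.2 and 25.1 CPM in control. Its groups overlapped too, its log2 change was -0.15 ± 0.16 (SE, adjusted p = 0.44), and the sign turned to 0.03 when libraries were scaled by their total.

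Tex15 showed the largest change of the 8 genes in size. It stood at 26.01, 22.6 and 19.7 CPM in Dhx36_sko, against 124, 86.7 and 114 CPM in control. Every Dhx36_sko library lay far below every control library, and the log2 change was -2.25 ± 0.16 (SE, adjusted p = 1.27e-08), a fall of 4.74-fold that ranked 159 of 14081 by decrease. Dmc1 had few counts, 62, 41 and 61 in Dhx36_sko and 14, 31 and 11 in control. These were 1.65, 1.07 and 1.60 CPM in Dhx36_sko, against 0.388, 1.03 and 0.346 CPM in control, and the groups lay close to each other without overlapping. The log2 change of Dmc1 was 1.30 ± 0.46 (SE, adjusted p = 0.025), and the call was lost without control replicate 1 or 3 or without Dhx36_sko replicate 4 or 6, with adjusted p of 0.070 to 0.085. Without control replicate 2 the log2 change was 1.95.

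Both detected cohesin genes were higher in the knockout. Smc1b, the meiotic partner of SMC3 in the ring, stood at 18.4, 17.4 and 19.5 CPM in Dhx36_sko, against 12.04, 11.9 and 11.5 CPM in control, a rise of 1.56-fold with a log2 change of 0.64 ± 0.14 (SE, adjusted p = 0.0011). Stag3 stood at 9.36, 6.79 and 5.27 CPM in Dhx36_sko, against 2.46, 2.53 and 2.14 CPM in control, a rise of 3.00-fold with a log2 change of 1.58 ± 0.24 (SE, adjusted p = 4.66e-05). Groups of neither gene overlapped. Some markers of another cell type moved in the same comparison. The 12 granulosa and cumulus markers held 0.00849% to 0.00887% of the counts in Dhx36_sko and 0.00230% to 0.00263% in control. Of the 8 tested, 4 were called higher and 0 lower, and Ptx3 had 0 counts in both groups. Amh and Foxl2 of the same list went the other way on few counts, 5 and 2 in Dhx36_sko and 11 and 6 in control. One gene of that list, Fshr, made up 37.5 to 41.1 CPM in Dhx36_sko and 0.281 to 0.390 CPM in control, and the part of this list in the results above was not tested. The immune marker Ptprc stood at 1.04 to 2.47 CPM in Dhx36_sko and had 0 counts in control, while the 8 immune, endothelial and blood markers summed to 9.35 to 11.998 CPM in Dhx36_sko and 11.6 to 13.5 CPM in control.

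The DRB experiment held sko and c libraries of its own, here fitted with terms for genotype and DRB over the 6 deep libraries. Mei4 and Stag3 rose, and Tex15, Sycp3 and Smc1b fell, 2 higher and 3 lower of 8 tested, beside 36.0% of all 16784 genes called, 19.2% higher and 16.8% lower. Without the single rhau_sko library, 2 of the 8 were called, beside 4019 of all 17869 genes. In that fit the members' share is close to that of all genes.

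Mei4 stood at 216 CPM in the rhau_sko library and 265 and 308 CPM in rhau_sko_DRB, against 145 and 154 CPM in c and 119 CPM in the c_DRB library. All 3 sko libraries lay above all 3 c libraries, and the log2 change was 0.90 ± 0.16 (SE, adjusted p = 0.0016), or 0.52 without the c_DRB library. Hormad1 stood at 17.3 CPM in the rhau_sko library and 20.05 and 25.98 CPM in rhau_sko_DRB, against 29.1 and 29.8 CPM in c and 24.97 CPM in the c_DRB library. Here the genotypes overlapped and the log2 change of -0.44 ± 0.19 (SE, adjusted p = 0.095) was not called, although it was called without the c_DRB library (-0.78, adjusted p = 0.040) and without rhau_sko_DRB replicate 8 (-0.58, adjusted p = 0.022). On all 6 deep libraries it was called with no filter on low counts (-0.47, adjusted p = 0.046) and with 1 term per group (-0.46). Sycp3 stood at 25.7 CPM in the rhau_sko library and 17.7 and 14.02 CPM in rhau_sko_DRB, against 34.6 and 41.6 CPM in c and 31.3 CPM in the c_DRB library. It lay lower in every sko library, with a log2 change of -0.77 ± 0.17 (SE, adjusted p = 0.0045), and its call was lost without the c_DRB library (adjusted p = 0.10). Sycp1 stood at 28.9 CPM in the rhau_sko library and 33.2 and 32.5 CPM in rhau_sko_DRB, against 30.5 and 30.5 CPM in c and 27.2 CPM in the c_DRB library, with overlapping genotypes and a log2 change of 0.10 ± 0.15 (SE, adjusted p = 0.65).

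Tex15 stood at 176 CPM in the rhau_sko library and 177 and 119.8 CPM in rhau_sko_DRB, against 358 and 295 CPM in c and 225 CPM in the c_DRB library. The log2 change was -0.75 ± 0.16 (SE, adjusted p = 0.0044), the same direction as in the first experiment, and its call was lost without the rhau_sko library (adjusted p = 0.055). Dmc1 stood at 6.11 CPM in the rhau_sko library and 6.38 and 6.61 CPM in rhau_sko_DRB, against 4.46 and 4.97 CPM in c and 4.47 CPM in the c_DRB library. The genotypes did not overlap, but the log2 change of 0.45 ± 0.24 (SE, adjusted p = 0.16) was not called. Smc1b stood at 31.01 CPM in the rhau_sko library and 49.8 and 48.7 CPM in rhau_sko_DRB, against 84.4 and 63.6 CPM in c and 63.8 CPM in the c_DRB library. It was lower in every sko library, with a log2 change of -0.81 ± 0.20 (SE, adjusted p = 0.0092). Without the rhau_sko library this was -0.41 and not called (adjusted p = 0.15), and without the c_DRB library it was -1.26. Stag3 stood at 9.72 CPM in the rhau_sko library and 8.08 and 6.61 CPM in rhau_sko_DRB, against 2.94 and 2.66 CPM in c and 3.74 CPM in the c_DRB library. The log2 change was 1.39 ± 0.26 (SE, adjusted p = 0.0021), and it lost its call without the rhau_sko library (0.94, adjusted p = 0.088). In these libraries Fshr stood at 31.0 CPM in rhau_sko and 15.9 to 23.3 CPM in rhau_sko_DRB, against 0.293 to 2.66 CPM in c and 1.08 CPM in c_DRB. The granulosa and cumulus list as a whole held 0.0151% of counts in rhau_sko and 0.0112% to 0.0131% in rhau_sko_DRB, against 0.00687% to 0.00778% in c and 0.00658% in c_DRB, with Amh at 0 in all 4 groups, and its part in the results was not tested.

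Whether the 2 knockout changes differed was tested as an interaction over 12 libraries. Of the 8 genes, 3 were called higher in the DRB experiment relative to the first and 1 lower, beside 12.5% of all 17437 genes called, 4.92% higher and 7.63% lower. The sko change of Smc1b ran in opposite directions, -0.81 ± 0.20 (SE, adjusted p = 0.0092) in the DRB experiment and 0.64 ± 0.14 (SE, adjusted p = 0.0011) in the first, a difference of -1.48 ± 0.24 (SE, adjusted p = 4.16e-04). Tex15 fell in both, and its change differed by 1.47 ± 0.24 (SE, adjusted p = 3.89e-04). Hormad1 differed by 1.09 ± 0.24 (SE, adjusted p = 0.0057), a call lost without the c_DRB library (0.79, adjusted p = 0.080). The difference of Mei4, 0.77 ± 0.23 (SE, adjusted p = 0.037), was lost in 5 of the 12 fits without 1 library, lowest at 0.42 without the c_DRB library, and under scaling by the total (0.57, adjusted p = 0.089). Sycp3 missed the threshold at -0.88 ± 0.29 (SE, adjusted p = 0.051), and was called under scaling by the total (-1.07, adjusted p = 0.017), with no filter on low counts (-0.90, adjusted p = 0.0091) and without control replicate 1, Dhx36_sko replicate 6 or c replicate 1 (adjusted p of 0.035 to 0.048). The difference of Stag3 was -0.23 ± 0.37 (SE, adjusted p = 0.77). In this interaction the split of all called genes moved with the scaling: 858 were higher and 1330 lower with TMM, 1238 and 1065 with RLE factors, and 402 and 1915 with totals alone. The median of all genes was -0.08, 0.03 and -0.25 in those fits.

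DRB was tested over the same 6 deep libraries. None of the 8 genes was called (0 of 8), at log2 changes of -0.49 to 0.22 and adjusted p of 0.26 and above, beside 0.0119% of all genes, 2 of 16784, with 0.00596% higher and 0.00596% lower. At an unadjusted p under 0.05 there were 2099 genes, 2 of them among the 8, and DESeq2 called 541 genes, 0 of them among the 8. Sycp3 stood at 17.7 and 14.02 CPM in rhau_sko_DRB and 31.3 CPM in c_DRB, against 25.7 CPM in rhau_sko and 34.6 and 41.6 CPM in c, with a log2 change of -0.49 ± 0.17 (SE, adjusted p = 0.26). Tex15 stood at 177 and 119.8 CPM in rhau_sko_DRB and 225 CPM in c_DRB, against 176 CPM in rhau_sko and 358 and 295 CPM in c, with a log2 change of -0.39 ± 0.16 (SE, adjusted p = 0.35). With 1 deep library in rhau_sko and 1 in c_DRB, these values do not show that DRB left the genes as they were. CPM are relative to the other genes of a library, so a change shared by all genes would not show in them either.

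In GV oocytes labelled with the G-quadruplex ligand cPDS and 12 h, 5 of the 8 genes were called higher and Stag3 alone lower. Beside this, 50.8% of all 16115 genes were called, 23.4% higher and 27.4% lower. The GV_C label gives no time, so the ligand and the 12 h cannot be told apart. Mei4 stood at 159, 166 and 188 CPM in GV_cPDS_12h, against 107, 127 and 104 CPM in GV_C. Its groups did not overlap and its log2 change was 0.61 ± 0.09 (SE, adjusted p = 3.18e-05). Hormad1 was scarce in both groups, at 3.11, 3.17 and 4.10 CPM in GV_cPDS_12h, against 1.61, 2.16 and 2.09 CPM in GV_C, and rose 1.79-fold with a log2 change of 0.84 ± 0.20 (SE, adjusted p = 0.0028). Tex15 stood at 212, 243 and 288 CPM in GV_cPDS_12h, against 152, 173 and 155 CPM in GV_C. It too lay higher in every treated library, with a log2 change of 0.63 ± 0.10 (SE, adjusted p = 4.91e-05). Sycp1 stood at 33.6, 30.6 and 39.9 CPM in GV_cPDS_12h, against 24.7, 26.9 and 22.8 CPM in GV_C, with a log2 change of 0.49 ± 0.11 (SE, adjusted p = 0.0013). Sycp3 stood at 18.8, 17.3 and 19.6 CPM in GV_cPDS_12h, against 12.4, 17.7 and 13.3 CPM in GV_C. The groups overlapped, the log2 change was 0.36 ± 0.13 (SE, adjusted p = 0.028), and the call was lost without replicate 1 or 3 of GV_cPDS_12h or of GV_C, with adjusted p of 0.056 to 0.13.

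Stag3 fell in the treated oocytes to 1.35, 0.306 and 0.989 CPM in GV_cPDS_12h, against 4.57, 3.49 and 3.23 CPM in GV_C. The counts behind these values were 53, 8 and 62 in GV_cPDS_12h and 301, 209 and 186 in GV_C. The groups lay apart, and the log2 change was -2.02 ± 0.32 (SE, adjusted p = 7.64e-05), a fall of 4.06-fold that ranked 597 of 16115 by decrease. Smc1b stood at 33.8, 29.7 and 32.95 CPM in GV_cPDS_12h, against 27.7, 30.4 and 27.7 CPM in GV_C, with overlapping groups and a log2 change of 0.17 ± 0.09 (SE, adjusted p = 0.13). Dmc1 stood at 6.41, 6.92 and 7.64 CPM in GV_cPDS_12h, against 7.13, 7.82 and 6.78 CPM in GV_C, again with overlapping groups, and its log2 change was -0.05 ± 0.13 (SE, adjusted p = 0.79). Granulosa and cumulus markers held 0.00895% to 0.0102% of the counts in GV_cPDS_12h and 0.0110% to 0.0113% in GV_C, with 2 called higher and 2 lower of 8 tested and Ptx3 at 0, and their part was not tested.

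In the Trim experiment, Dmc1, Mei4 and Tex15 were many times higher in Trim21_3h than in Trim_control_3h, Sycp1 was also higher, and Hormad1 and Sycp3 were lower. That is 4 higher and 2 lower of the 8 tested, beside 11.5% of all 14191 genes called, 6.26% higher and 5.23% lower. Ranked by increase among the 14191 genes, Dmc1 was 21, Mei4 28 and Tex15 66. The genes were chosen with earlier results of these data in view, so neither this count nor these ranks test them as a group.

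Mei4 stood at 162, 193 and 109.9 CPM in Trim21_3h, against 4.50, 4.57 and 4.15 CPM in Trim_control_3h. The groups lay far apart, and the log2 change was 5.13 ± 0.22 (SE, adjusted p = 3.67e-08), 34.96-fold. Tex15 stood at 109, 111 and 146 CPM in Trim21_3h, against 10.9, 14.4 and 6.06 CPM in Trim_control_3h. These groups lay apart as well, and the log2 change was 3.53 ± 0.26 (SE, adjusted p = 3.21e-06), 11.6-fold. Dmc1 had 238, 38 and 170 counts in Trim21_3h and 0, 2 and 4 counts in Trim_control_3h. On the CPM scale this was 7.45, 5.08 and 7.37 CPM in Trim21_3h, against 0, 0.100 and 0.263 CPM in Trim_control_3h, and the ratio of summed counts per total was 66.2 with a 95% counting interval of 30.2 to 181. Its fitted log2 change, 5.86 ± 0.55 (SE, adjusted p = 2.45e-05), rests on 6 control counts in all and depends on the prior count, as does its rank. It was 5.23 without Trim_control_3h replicate 1 and 6.92 without Trim_control_3h replicate 3.

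For Mei4 it is the controls that lie far outside the range of the other groups, and for Tex15 and Dmc1 they lie just below it. For Hormad1 the lowest Trim_control_3h library, at 35.9 RPKM, lay above the next group, control, at most 27.7 RPKM. For Sycp3 the lowest, at 41.2 RPKM, lay above Trim21_3h, at most 35.7 RPKM. Trim21 transcript was higher in Trim21_3h, the direction of the label, as given above. Dhx36 transcript was lower, but Trim-away acts on the protein, so the label gives no direction for that transcript. Whether these control libraries otherwise match the Trim21_3h libraries in stage and origin could not be settled from the files. The 3 large folds thus hold for these libraries as labelled. Across the 8 other groups Mei4 ran from 104 to 308 CPM, Tex15 from 19.7 to 358 CPM and Dmc1 from 0.346 to 7.82 CPM, ranges that hold every Trim21_3h library, while every Trim_control_3h library lay below them. The 8 other groups came from another table and each experiment was normalised apart, so the ranges are set side by side with no test.

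Sycp1 stood at 54.6, 49.4 and 40.2 CPM in Trim21_3h, against 27.6, 27.4 and 25.5 CPM in Trim_control_3h. It rose 1.79-fold with no overlap, with a log2 change of 0.84 ± 0.15 (SE, adjusted p = 0.0028). Hormad1 stood at 25.4, 35.7 and 29.8 CPM in Trim21_3h, against 62.2, 72.3 and 64.3 CPM in Trim_control_3h, a fall of 2.21-fold with a log2 change of -1.14 ± 0.15 (SE, adjusted p = 3.64e-04). Sycp3 stood at 33.6, 45.1 and 39.99 CPM in Trim21_3h, against 52.04, 71.9 and 58.3 CPM in Trim_control_3h. Its groups did not overlap, its log2 change was -0.63 ± 0.16 (SE, adjusted p = 0.023), and the call was lost without Trim_control_3h replicate 3 or without Trim21_3h replicate 1 or 3, with adjusted p of 0.051 to 0.10. Smc1b stood at 39.4, 49.5 and 50.4 CPM in Trim21_3h, against 52.8, 75.1 and 50.9 CPM in Trim_control_3h and was not called, with a log2 change of -0.36 ± 0.17 (SE, adjusted p = 0.21). Stag3 stood at 1.00, 1.61 and 1.39 CPM in Trim21_3h, against 2.08, 1.76 and 2.24 CPM in Trim_control_3h and was not called either, with a log2 change of -0.65 ± 0.38 (SE, adjusted p = 0.34). The oocyte markers held 1.08% to 1.34% of counts in Trim21_3h and 0.933% to 1.33% in Trim_control_3h. The granulosa and cumulus markers held 0.00684% to 0.00755% in Trim21_3h and 0.00473% to 0.00487% in Trim_control_3h, with Amh and Foxl2 at 0 counts in both, and their part in these results was not tested.

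**Figure D2:**
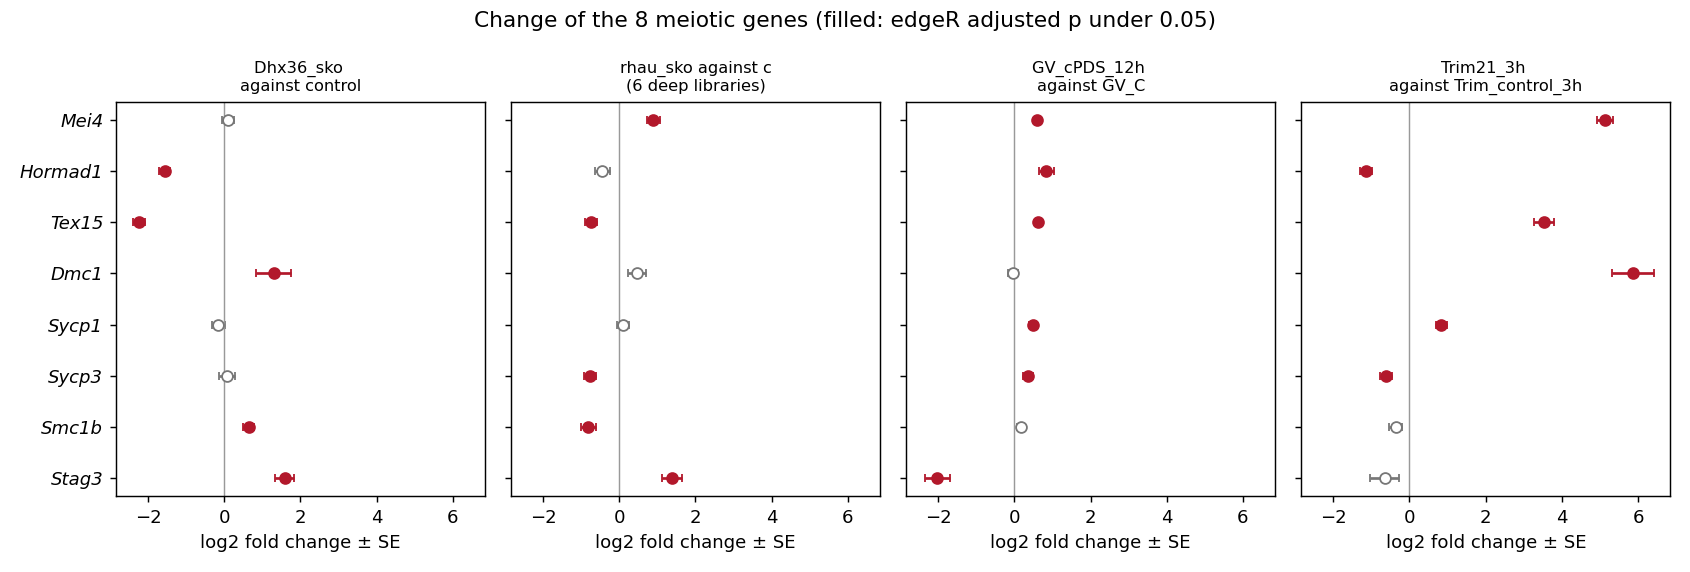
Log2 fold change (x axis) of the 8 tested genes (y axis) in 4 comparisons; bars are SE and filled points have an edgeR adjusted p under 0.05. Mei4, Tex15 and Dmc1 reach 5.13, 3.53 and 5.86 in the Trim comparison, and Stag3 is called higher in both knockouts and lower with cPDS.

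The meiotic cohesin subunits were set beside their general counterparts per length. SMC1A, RAD21, STAG1 and STAG2 form cohesin in mitotic cells, and RAD21L is a further meiotic kleisin. With Rec8 at 0 counts, the kleisin genes that had counts were Rad21, at 11.2, 13.2 and 14.9 RPKM in Dhx36_sko and 12.9, 14.9 and 19.1 RPKM in control, and Rad21l at a lower level. The RPKM ratio of Rad21l to Rad21 was 0.0815 ± 0.0086 in Dhx36_sko and 0.0833 ± 0.017 in control (mean ± SD, n = 3 each). In the first experiment Smc1a rose as Smc1b did, with a log2 change of 1.10 ± 0.12 (SE, adjusted p = 1.92e-06). The RPKM ratio of Smc1b to Smc1a was 0.250 ± 0.033 in Dhx36_sko and 0.341 ± 0.0054 in control. In the DRB experiment Smc1a rose while Smc1b fell, with a log2 change of 0.58 ± 0.12 (SE, adjusted p = 0.0029) for Smc1a. There the ratio was 0.354 in the rhau_sko library and 0.547 ± 0.061 in rhau_sko_DRB (n = 2), against 1.24 ± 0.24 in c (n = 2) and 1.07 in the c_DRB library, where Smc1b exceeded Smc1a.

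The other 2 experiments gave other pictures for the SMC1 pair. With cPDS, Smc1a fell, with a log2 change of -0.32 ± 0.09 (SE, adjusted p = 0.0094), and the ratio was 0.632 ± 0.065 in GV_cPDS_12h and 0.448 ± 0.0040 in GV_C. In the Trim experiment it was 0.624 ± 0.058 in Trim21_3h and 0.717 ± 0.028 in Trim_control_3h, and Smc1a was not called. For the STAG subunits, the RPKM ratio of Stag3 to Stag2 was 0.626 ± 0.12 in Dhx36_sko and 0.127 ± 0.021 in control. Stag2 itself fell in Dhx36_sko, with a log2 change of -0.73 ± 0.16 (SE, adjusted p = 0.0011), and Stag1 was not called. In GV oocytes the ratio was 0.0271 ± 0.015 in GV_cPDS_12h and 0.126 ± 0.031 in GV_C, with Stag2 not called and Stag1 higher, with a log2 change of 0.49 ± 0.11 (SE, adjusted p = 0.0011).

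**Figure D3:**
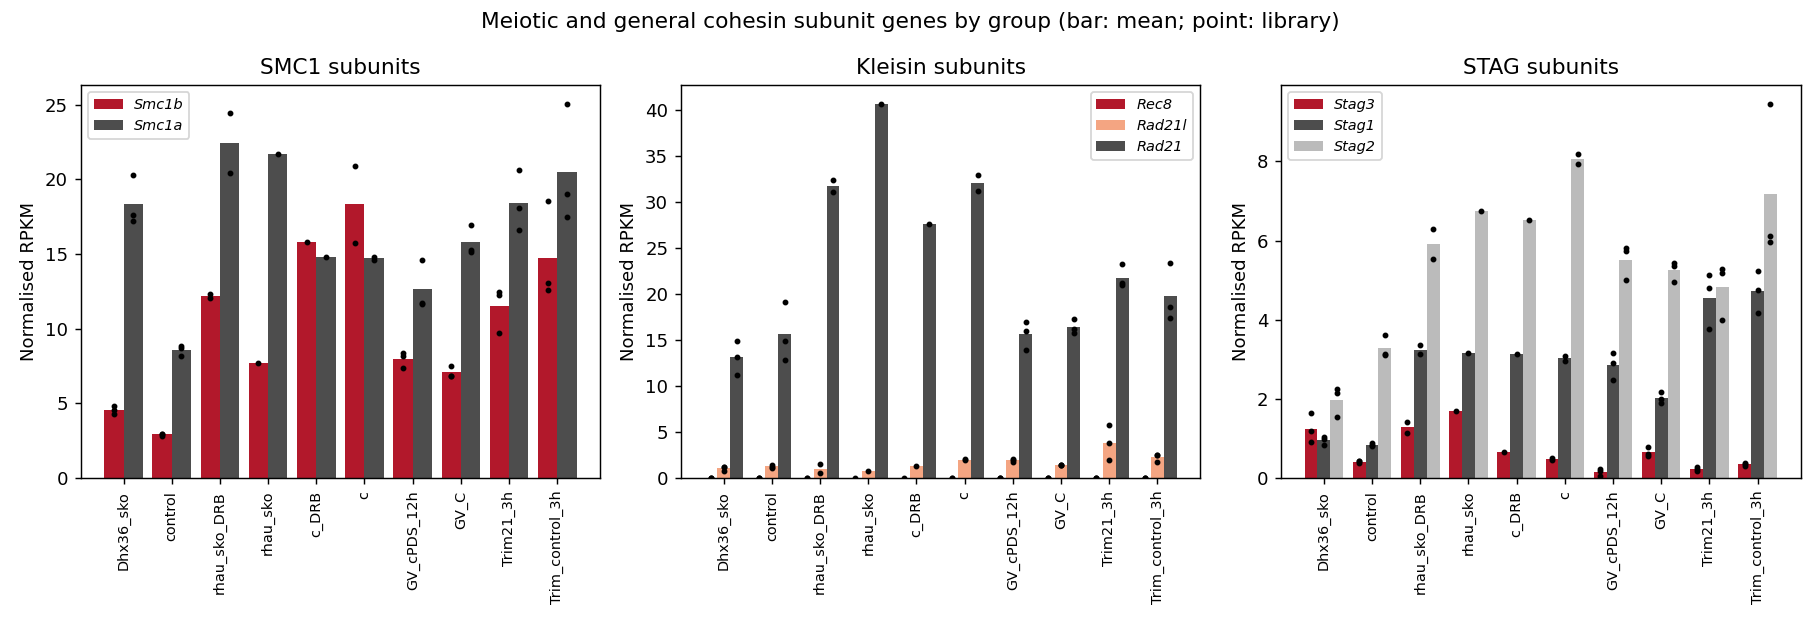
Normalised RPKM (y axis, linear) of meiotic and general cohesin subunit genes by group (x axis); bars are group means and points are libraries. Rec8 is at 0 in every group, and Smc1b exceeds Smc1a in c and c_DRB only.

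The 3 wider lists, of synapsis, recombination and cohesin with its regulators, held 61 other genes, of which 60 were found. In Dhx36_sko, 9 were called higher and 22 lower of 56 tested, beside 28.5% higher and 25.2% lower among all genes, so the total called is near the 53.7% of all genes. The list median was -0.24 beside 0.02 for all genes. Of the 26 recombination genes tested, 2 were called higher and 14 lower, beside the same shares, with a median of -0.39. Across the 3 lists, genes called lower included 2 of the recombination list: Shoc1, a crossover factor (8.12 ± 0.371 against 39.8 ± 2.74 CPM, log2 fold change -2.29), and the nuclease gene Mus81 (13.3 ± 1.30 against 41.4 ± 3.18 CPM, log2 fold change -1.63). The central element gene Tex12, of the synapsis list, was also lower (7.54 ± 1.08 against 33.7 ± 3.80 CPM, log2 fold change -2.16). Genes called higher outside the recombination list included the axis gene Hormad2 (21.4 ± 0.838 against 6.50 ± 0.929 CPM, log2 fold change 1.72) and the cohesin acetyltransferase gene Esco2 (819 ± 24.6 against 360.1 ± 64.6 CPM, log2 fold change 1.18). Hormad1 and Hormad2, which encode related axis proteins, thus moved in opposite directions.

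In the DRB experiment, 10 of the 57 tested wider genes were called higher and 12 lower, near the 19.2% higher and 16.8% lower of all genes, with a median of -0.20 beside 0.01. The brackets here hold means ± SD over the 3 deep sko libraries against the 3 deep c libraries, each pooled over libraries with and without DRB. Tex12 was again lower (16.4 ± 3.73 against 50.5 ± 7.05 CPM, log2 fold change -1.69), as was Iho1, whose product works with MEI4 in break formation (3.15 ± 0.870 against 9.93 ± 1.33 CPM, log2 fold change -1.77). Among those higher were Prdm9, whose product places breaks along the genome (22.9 ± 2.74 against 6.60 ± 0.989 CPM, log2 fold change 1.71), the helicase gene Hfm1 (6.04 ± 0.633 against 1.36 ± 0.193 CPM, log2 fold change 2.21) and Wapal, listed now as Wapl, a cohesin release factor (946 ± 106 against 659 ± 105 CPM, log2 fold change 0.64). The interaction called 6 higher and 5 lower of 57, beside 4.92% higher and 7.63% lower of all genes. Those higher were led by Shoc1 at 2.63 ± 0.22 (SE, adjusted p = 6.58e-07) and Prdm9 at 3.71 ± 0.43 (SE, adjusted p = 1.47e-05), with Msh4 also higher. Pds5a, Esco2 and Mlh3 led those lower.

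With cPDS, 16 were called higher and 19 lower of 58, beside 23.4% higher and 27.4% lower of all genes, with a median of 0.07 beside 0.01. Cohesin and its regulators counted 9 higher and 5 lower of 19, and recombination genes 5 higher and 9 lower of 26. Across all lists, genes called lower included the kinetochore gene Meikin, counted with cohesin and its regulators (20.6 ± 1.48 against 44.7 ± 1.30 CPM, log2 fold change -1.12). Psmc3ip, a recombination gene and partner of DMC1, was also lower (38.8 ± 5.72 against 86.2 ± 4.30 CPM, log2 fold change -1.16). Esco1 (465 ± 21.7 against 292 ± 4.85 CPM, log2 fold change 0.67), the securin gene Pttg1 (2911 ± 91.2 against 2135 ± 162 CPM, log2 fold change 0.45) and the crossover gene Rnf212 (8.81 ± 0.317 against 4.94 ± 0.226 CPM, log2 fold change 0.83) rose. In Trim21_3h, 1 was called higher and 7 lower of 54, and 0 of 19 cohesin genes were called, beside 6.26% higher and 5.23% lower of all genes. The gene called higher was Mnd1, which encodes the partner of PSMC3IP (58.2 ± 7.64 against 30.3 ± 2.67 CPM, log2 fold change 0.93). Ccnb1ip1, a crossover factor (19.9 ± 3.60 against 44.4 ± 3.62 CPM, log2 fold change -1.18), Majin, which ties telomeres to the nuclear envelope (0.856 ± 0.310 against 4.67 ± 1.07 CPM, log2 fold change -2.53), and Meiob, a single-strand binding factor (0.738 ± 0.494 against 4.02 ± 0.997 CPM, log2 fold change -2.26), led those lower. The values in brackets are means ± SD over 3 libraries a group, apart from the DRB experiment, where they pool groups as given. All named genes of these lists passed the same test over all genes.

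**Figure D4:**
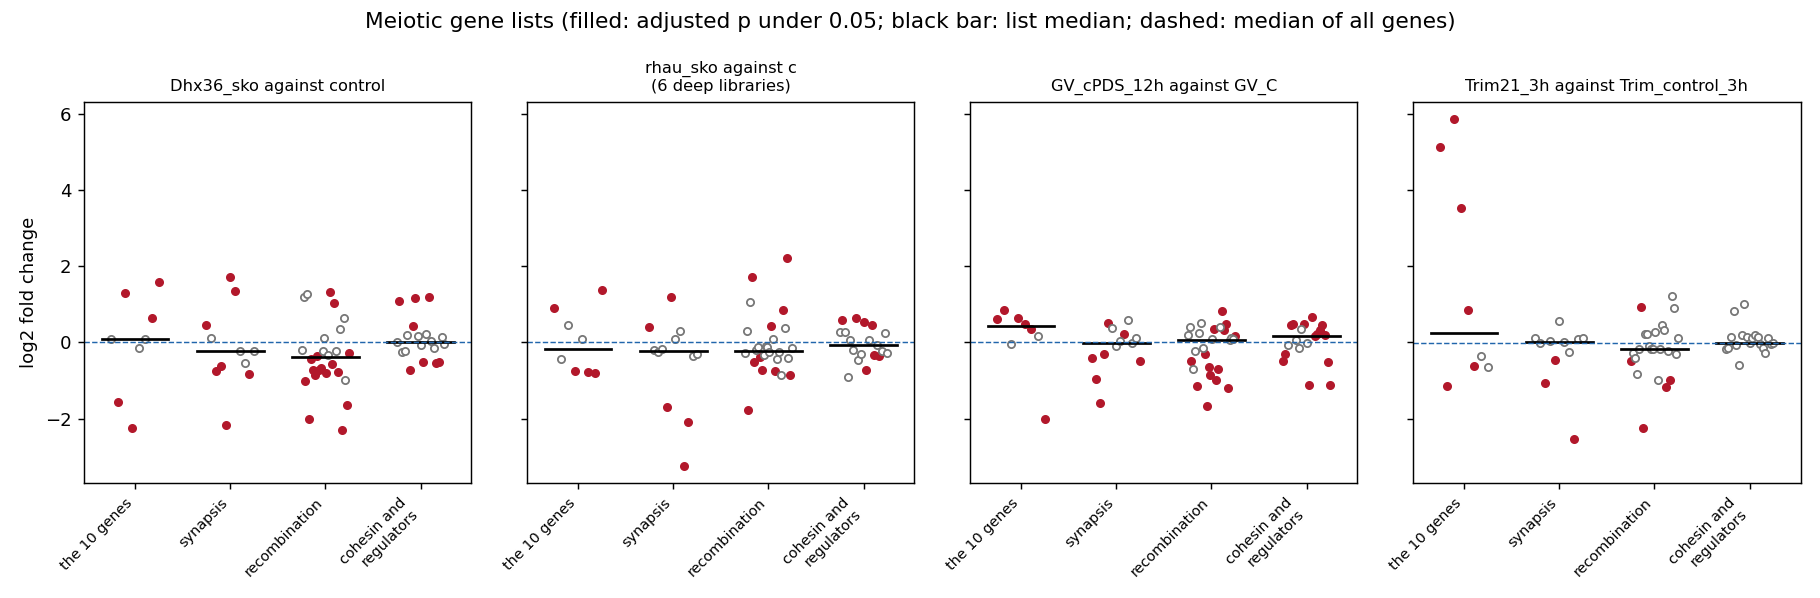
Log2 fold change (y axis) of the 10 genes and the 3 wider lists (x axis) in 4 comparisons; points are tested genes, filled where the adjusted p is under 0.05, black bars are list medians and the dashed line is the median of all genes. In the Trim panel Dmc1, Mei4 and Tex15 lie above every gene of the wider lists.

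The 4 genes with the highest level were compared with 5327 other genes over the 18 deep libraries of the first table, by the root-mean-square difference of log2 CPM after each gene's own mean was taken off. Closest to Mei4 were Lpl at 0.147, Rpf2 at 0.168 and Smc6 at 0.212. Closest to Tex15 were Runx1t1 at 0.251, Tcea3 at 0.303 and Fam69a at 0.318. Closest to Sycp3 were Tab3, Magi3 and Prpf4b at 0.331 to 0.335. Closest to Hormad1 were Fam54a at 0.599, Il17b at 0.652 and Mnd1 at 0.850. The distance grows with a gene's own spread, which was an SD of 0.42 for Mei4, 1.04 for Tex15, 0.50 for Sycp3 and 1.80 for Hormad1 on the log2 CPM scale, so the distances are not ranked between these 4 genes. The points share libraries and normalisation, so these distances describe the 18 libraries. Those come from the first, DRB and cPDS experiments, so differences between experiments enter each distance. Shared regulation was not tested.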

How the data were processed

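Members and gene lists were chosen with earlier results of these data known. Both tables used hold raw read counts per gene as deposited, with exon coordinates and, as another column, exon length in bases, per the file headers. Per the submitters' processing notes, the build was mouse mm9, and HISAT2 2.1.0, STAR 2.5.2b and featureCounts 2.0.1 were among the tools of the series, without a tool for each table. How strand and multi-mapping reads were treated is not given in the sources used here. No sample column stayed without a label (0 unmapped). A repeat of the first table (0 cells different) was not used, and assays other than RNA-seq were not analysed here.

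The counts went into edgeR 4.0.16 in R 4.3.3, with filterByExpr, TMM factors and quasi-likelihood tests, Benjamini-Hochberg adjusted over all genes tested. Each SE is the size of the log2 fold change divided by the root of the F statistic, and can be too small where a group has few counts. Comparisons of 2 groups used their own 6 libraries, the DRB experiment its 6 deep libraries with terms for genotype and DRB, and the interaction 12 libraries. Libraries under 200000 counts were left out. Levels are CPM on TMM-scaled library sizes, with each experiment scaled apart. The text names all members, the targeted genes, the general counterparts of the cohesin subunits, the 3 smallest p in each direction of the wider lists, and the 3 genes most like each of 4 members. Some genes that this rule names are not reported here. The test was checked on simulated counts. Alternatives were RLE factors, totals alone, no filter, DESeq2 1.42.0, other designs, a replicate block and leaving out each library. Depths of 7452742 to 65444652 counts set the precision of low genes such as Dmc1 and Stag3.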

Additional observations from a re-analysis of the deposited data

Results flagged for a closer look

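The change in sko oocytes differed between the DRB experiment and the first experiment, by the interaction test over all genes, for 4 of the 8 genes tested. The difference in log2 fold change was -1.48 for Smc1b, 1.47 for Tex15, 1.09 for Hormad1 and 0.77 for Mei4. The experiments differ in libraries, labels and the presence of DRB in part of the libraries, and these cannot be told apart.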

How the results depend on the processing

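Of the log2 fold changes recomputed, 587 kept direction and side of the threshold, 22 lost their call, 9 gained one and 30 changed sign; all 30 were changes that were not called. Signs turned under scaling by totals for Sycp1 in Dhx36_sko (0.032). For DRB they turned for Stag3 by totals (0.017) and with all 8 libraries (0.014), for Hormad1 with all 8 libraries (-0.068), for Dmc1 with RLE (-0.00206), DESeq2 (-0.00190) and 1 term per group (-0.00649), and for Sycp1 with 1 term per group (-0.000744). Leaving out 1 library at a time gave log2 changes of -0.019 to 0.27 for Mei4 and -0.18 to 0.25 for Sycp3 in Dhx36_sko, -0.088 to 0.24 for Sycp1 in rhau_sko, -0.12 to 0.028 for Dmc1 with cPDS and -0.68 to 0.20 for Stag3 in the interaction. For DRB the ranges were -0.32 to 0.39 for Mei4, -0.24 to 0.40 for Hormad1, -0.073 to 0.071 for Dmc1, -0.16 to 0.17 for Sycp1, -0.21 to 0.65 for Smc1b and -0.424 to 0.422 for Stag3. Members called ranged from 2 to 6 in rhau_sko and 2 to 5 in the interaction. Genes called ranged from 3678 (without the c_DRB library) to 6066 in rhau_sko, 1 to 8 for DRB, 928 (without Trim21_3h replicate 3) to 1936 in the Trim comparison and 1160 (without the rhau_sko library) to 2511 in the interaction. The DRB count of 2 genes became 492 with no filter, 541 with DESeq2 and 22 with 1 term per group.

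Nothing in the labels says that the replicate numbers of the cPDS and Trim experiments pair the libraries. Deviations of same-numbered libraries correlated at -0.20, -0.22 and -0.13 in the cPDS experiment and 0.25, 0.24 and -0.14 in the Trim experiment. With 3 libraries a group, these values do not settle whether the numbers pair. With a replicate block, 7568 genes were called instead of 8191 with cPDS and 1767 instead of 1630 in the Trim experiment, with 6 members called in each as before. Depth limits Dmc1, Stag3, Rec8 and Spo11, and 1 deep library in rhau_sko and in c_DRB limits every statement on that experiment.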
